A study of Rattus norvegicus with 4 samples.

Results

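Adenylyl cyclases, cyclic nucleotide phosphodiesterases and guanylyl cyclases are the enzymes that make and break down cAMP and cGMP. Their genes were compared between carotid bodies (CBs) of neonatal and adult rats. Members were chosen by a symbol pattern, with earlier results of these data known. Adcy, Pde, Gucy1 and Gucy2 genes in the pattern of the family names gave 44 entries of 43 symbols among the 32883 genes listed. Of these entries, 10 are adenylyl cyclases, 25 are phosphodiesterases and 9 are guanylyl cyclases, and Pde4c has 2 entries. In the CB, which lies where the common carotid artery divides, glomus cells sense blood oxygen and glia-like sustentacular cells surround them. The groups were Sprague Dawley rats of 5 days (neonates) and 21 days (adults), and the labels name no treatment and no allele. Each age had 2 libraries made from total RNA of whole CBs, for which the paper names poly(A) selection. Each was pooled from 6 pups or 3 older rats according to the deposited design. The paper names larger pools and a further replicate per age and states that both sexes were included, so a library is an average over animals and over all cell types of the organ.

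Adenylyl cyclases form cAMP from ATP, most of them at the cell membrane under G proteins, and guanylyl cyclases form cGMP, either as a soluble enzyme that nitric oxide activates or as receptors for peptides. Phosphodiesterases (PDEs) hydrolyse these messengers, and their families differ in taking cAMP, cGMP or both, and in their control by calcium-calmodulin or cGMP. In the CB, cAMP is known to modulate glomus cell excitability, and the nitric oxide and cGMP route is known to restrain sensory discharge.

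Counts summed to between 36286191 and 39476110 per library. The floor was set at 3 counts, or 0.0760 to 0.0827 CPM (counts scaled to a common library total), and covers counting error only. The labelled tissue carried its markers, since all 8 glomus cell markers passed the filter on low counts. Their summed level was 5998 and 4615 normalized CPM in neonates against 5109 and 4251 in adults. Chga, which is in that sum, was at 1725 and 793 in neonates and 786 and 661 in adults, highest in neonate replicate 1. Neonate replicate 1 stood apart in parathyroid RNA, with 1773 normalized CPM of Pth, the parathyroid hormone, against 208 in neonate replicate 2 and 0 in both adult libraries. The 13 mRNAs of mitochondrial DNA took between 15.6% and 18.7% of the neonatal counts and between 9.06% and 9.08% of the adult counts. Scaling moved with age too, with TMM factors of 0.902 and 0.935 in neonates and 1.08 and 1.10 in adults. With library size in place of TMM factors, the median over all genes moved from -0.0029 to -0.25 on the log2 fold change scale. The part of mitochondrial mRNAs in that move was not tested. Levels below are TMM-normalized CPM given for neonate replicates 1 and 2 and then adult replicates 1 and 2. Counts per gene depend on transcript length, which the files do not give, so levels are compared between ages and not between genes. Fold changes are neonate over adult, on a log2 scale with their standard error (SE), where a negative value means lower in neonates. Adjusted p-values come from the quasi-likelihood test of edgeR and were corrected by Benjamini and Hochberg's method across the 13843 genes tested. In bulk tissue, fewer cells of a type and less RNA per cell cannot be told apart.

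Of the 44 entries, 31 passed the filter of 1 CPM in 2 or more libraries. At an adjusted p under 0.05 in edgeR's quasi-likelihood test and a fold change of at least 2, 9 of these 31 were lower in neonates (29.0%), against 13.2% of all genes tested, and 1 was higher (3.23%), against 7.68% of all genes. Without a minimum fold, 14 were lower and 8 higher, where 31.1% of all genes were lower and 31.2% higher, and 9 did not pass the test. The 22 called made up 71.0% of the 31, against 62.3% of all genes. The median log2 fold change of the 31 genes was -0.46, against -0.0029 over all genes tested. The libraries of the ages did not overlap for 26 of the 31 (83.9%), close to the 83.0% of all genes. At least 1 CPM in both libraries of both ages was reached by 29 of the 31. Pde4c reached it in both libraries in adults only, so it passed the filter through the age at which it was high, and Gucy2d reached it at neither age. Among the 29, a count added after seeing the data, 8 were lower at 2-fold (27.6%). Without neonate replicate 1, the library with more parathyroid RNA, 11 of the 31 were lower at 2-fold and 1 was higher. Scaled to library size alone, 14 of the 31 were lower at 2-fold and 0 were higher. All genes moved too under that scaling, with 2549 lower and 704 higher at 2-fold, against 1822 and 1063 in the main fit. Leaving out single libraries also moved the member counts, as given in the section on processing.

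**Figure D1:**
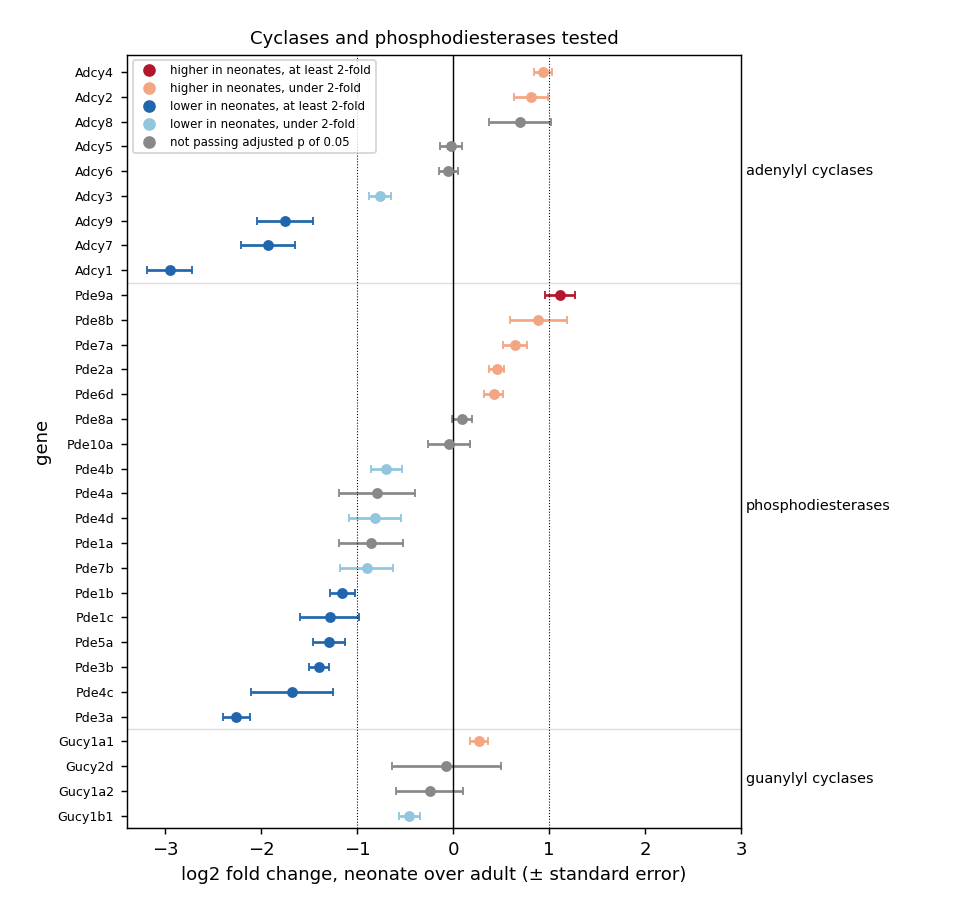
Log2 fold change (neonate over adult) with its standard error for the 31 genes tested, grouped by family, with colour for the call at an adjusted p under 0.05 and dotted lines at 2-fold. Points run from -2.95 for Adcy1 to 1.12 for Pde9a, with 9 of them past 2-fold on the adult side.

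The adenylyl cyclases did not move as a family. Of the 9 tested, 3 were lower in neonates at 2-fold or more (Adcy1, Adcy7 and Adcy9), Adcy3 was lower by less, Adcy2 and Adcy4 were higher, and 3 did not pass the test. Those lower at 2-fold were 33.3% of the 9, against 13.2% of all genes. At any fold 66.7% were called, against 62.3% of all genes. All 10 entries summed to 284 and 296 normalized CPM in neonates and 268 and 310 in adults, so the totals of the ages overlapped under TMM scaling. The unscaled counts, 10076 and 10640 in neonates and 10904 and 12302 in adults, did not overlap. Library totals were larger in neonates, so with library size alone the adult sums stay higher.

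Adcy1 (ENSRNOG00000059479) encodes a calcium-calmodulin-stimulated cyclase known mainly from neurons. Its level was 2.0 and 1.48 normalized CPM in the neonatal libraries and 13.2 and 13.8 in the adult libraries. Both adult libraries lay far above both neonatal libraries, a 7.75-fold difference (log2 fold change -2.95, SE 0.24, adjusted p = 1.6e-05 in edgeR's quasi-likelihood test). Adcy3 (ENSRNOG00000003999), grouped with the calcium-stimulated cyclases and best known for its role in smell, was at 18.8 and 16.8 in neonates and 28.7 and 31.8 in adults. This difference was also without overlap but under 2-fold (log2 fold change -0.76, SE 0.11, adjusted p = 0.00038 in edgeR's quasi-likelihood test). Adcy8, the remaining member of the calcium-stimulated group, had the opposite sign, with 2.84 and 2.53 in neonates and 1.57 and 1.74 in adults. It did not pass the test (log2 fold change 0.70, SE 0.32, adjusted p = 0.085 in edgeR's quasi-likelihood test). As a share of all adenylyl cyclase counts, the calcium-stimulated group took 8.34% and 7.04% in neonates and 16.2% and 15.3% in adults.

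Adcy2, Adcy4 and Adcy7 are the cyclases that G protein beta-gamma subunits stimulate, and they parted by age. Adcy4 (ENSRNOG00000020401) had 73.1 and 72.5 normalized CPM in neonates and 36.4 and 39.8 in adults. The neonatal libraries were nearly alike and 1.91-fold above the adult mean, just short of the 2-fold threshold (log2 fold change 0.93, SE 0.092, adjusted p = 4.6e-05 in edgeR's quasi-likelihood test). Without adult replicate 2 its log2 fold change was 1.0 and past that threshold. Adcy2 (ENSRNOG00000032150) was at 12.9 and 11.5 in neonates and 7.39 and 6.5 in adults, higher in neonates by 0.81 on the log2 scale (SE 0.18, adjusted p = 0.0041 in edgeR's quasi-likelihood test). Adcy7 (ENSRNOG00000014776), common in cells of the immune system, went the other way, from 2.0 and 1.67 in neonates to 5.99 and 8.04 in adults. It was 3.82-fold lower in neonates (log2 fold change -1.93, SE 0.28, adjusted p = 0.00036 in edgeR's quasi-likelihood test). Macrophage markers moved in the same direction, 5 of 6 lower in neonates, with a summed level of 73.8 and 84 normalized CPM in neonates and 133 and 131 in adults. Their part in the result for Adcy7 was not tested.

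Adcy9 (ENSRNOG00000049768), a cyclase that forskolin hardly activates, had 1.72 and 2.28 normalized CPM in neonates and 5.60 and 7.89 in adults. Every adult library was above every neonatal one, and the gene was 3.37-fold lower in neonates (log2 fold change -1.75, SE 0.30, adjusted p = 0.00087 in edgeR's quasi-likelihood test). The calcium-inhibited cyclases Adcy5 and Adcy6 held the largest part of the family's counts, between 59.9% and 64.4% in every library. Adcy6 (ENSRNOG00000054757) was at 141 and 158 in neonates and 142 and 167 in adults, and Adcy5 at 28.9 and 29.4 in neonates and 26.6 and 32.6 in adults. The ages overlapped for both, with log2 fold changes of -0.049 (SE 0.098) for Adcy6 and -0.023 (SE 0.12) for Adcy5 and adjusted p of 0.68 and 0.87 in edgeR's quasi-likelihood test. The sign of Adcy6 turned when neonate replicate 1 or adult replicate 2 was left out, and that of Adcy5 without adult replicate 2. Adcy10, the soluble cyclase that bicarbonate activates, had 13 and 7 counts in neonates and 9 and 26 in adults and was below the filter.

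Among the phosphodiesterases, 18 of 25 entries were tested. Of these 6 were lower in neonates at 2-fold or more (Pde3a, Pde3b, Pde1b, Pde1c, Pde5a and Pde4c), 3 were lower by less, 5 were higher, with Pde9a past 2-fold, and 4 did not pass the test. The 6 were 33.3% of the 18, against 13.2% of all genes, and include Pde4c, which passed the filter only through adults. At any fold 77.8% were called, against 62.3% of all genes, of which 31.1% were lower and 31.2% higher. The median log2 fold change of the 18 was -0.80, against -0.0029 over all genes. All entries of the family summed to 325 and 320.5 normalized CPM in neonates and 382 and 379 in adults, without overlap, and a two-sided exact permutation test of 2 libraries against 2 cannot go below p = 0.333.

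**Figure D2:**
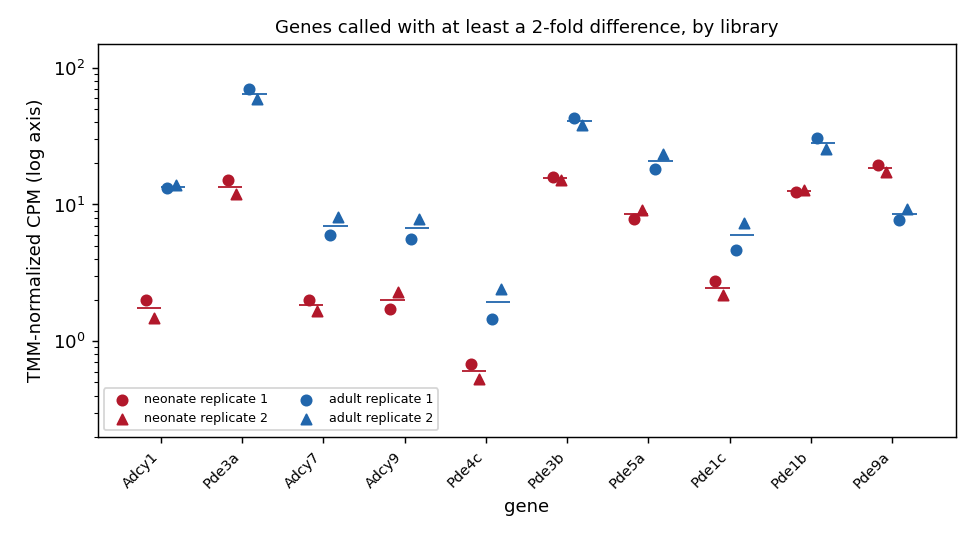
TMM-normalized CPM (log axis) of the 10 genes called with at least a 2-fold difference, with circles for replicate 1, triangles for replicate 2, neonates in red, adults in blue and a line at each mean. Pde9a alone among them has its neonatal points above its adult points, and Pde4c has the lowest levels, between 0.529 and 2.42.

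Both genes of the PDE3 family, which hydrolyse cAMP and are inhibited by cGMP, were lower in neonates. Pde3a (ENSRNOG00000025042), a form of heart and vascular smooth muscle, was at 15.2 and 11.9 normalized CPM in neonates and 70.4 and 59.1 in adults. It was 4.79-fold lower in neonates (log2 fold change -2.26, SE 0.14, adjusted p = 5.3e-06 in edgeR's quasi-likelihood test), and stayed past 2-fold under all 12 alternatives tried. Pde3b (ENSRNOG00000011417), known from fat, liver and pancreatic islets, had 15.9 and 15.2 in neonates and 43.2 and 38.4 in adults. The libraries of an age lay close together, and the difference was 2.63-fold (log2 fold change -1.39, SE 0.10, adjusted p = 1.2e-05 in edgeR's quasi-likelihood test). The PDE3 share of all phosphodiesterase counts was 9.56% and 8.44% in neonates and 29.7% and 25.7% in adults, and these shares do not depend on how libraries are scaled. Smooth muscle markers were lower in neonates for 4 of 7 and higher for 1, with a summed level of 690 and 723 normalized CPM in neonates and 823 and 960 in adults. Adipocyte markers moved with Pde3b in part. Adipoq, which encodes adiponectin, was at 2.39 and 1.98 in neonates and 11.7 and 13.2 in adults, and the lipid droplet gene Plin1 at 1.94 and 3.62 against 9.23 and 18.2. With Cidec, 3 of 6 were thus lower in neonates, between 3.88-fold and 5.68-fold. Fabp4, also expressed by endothelium, was higher in neonates (134 and 178 against 94.1 and 125) and made up most of the list's sum, which overlapped between ages at 141 and 187 against 119 and 165. The part of these cell types in the PDE3 result was not tested.

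Pde2a, whose enzyme is stimulated by cGMP, took the largest share of phosphodiesterase counts in every library and had the opposite sign to PDE3. Pde2a (ENSRNOG00000019560) was at 109 and 116 normalized CPM in neonates and 80.4 and 84 in adults. The ages did not overlap (log2 fold change 0.46, SE 0.078, adjusted p = 0.00094 in edgeR's quasi-likelihood test), but scaled to library size alone it did not pass (log2 fold change 0.21, adjusted p = 0.061 in edgeR's quasi-likelihood test). Its share of the family's counts was 33.7% and 36.3% in neonates and 21.1% and 22.2% in adults.

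The calmodulin-dependent PDE1 genes, which couple calcium entry to breakdown of cAMP and cGMP, all had lower values in neonates without overlap. Pde1b (ENSRNOG00000036828) was at 12.3 and 12.9 normalized CPM in neonates and 30.8 and 25.2 in adults, a 2.22-fold difference (log2 fold change -1.15, SE 0.13, adjusted p = 9.0e-05 in edgeR's quasi-likelihood test). Pde1c (ENSRNOG00000012337) had 2.76 and 2.17 in neonates and 4.66 and 7.36 in adults. The adult libraries of Pde1c were spread wider than the neonatal ones, and its log2 fold change of -1.28 (SE 0.31, adjusted p = 0.0058 in edgeR's quasi-likelihood test) was -0.92 without adult replicate 2, with an adjusted p of 0.090 in that edgeR fit. Pde1a was at 1.61 and 1.78 in neonates and 2.48 and 3.65 in adults and fell just short of the threshold (log2 fold change -0.85, SE 0.34, adjusted p = 0.052 in edgeR's quasi-likelihood test). Together the PDE1 genes took 5.15% and 5.25% of phosphodiesterase counts in neonates and 9.93% and 9.56% in adults.

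The cGMP-specific enzymes moved in opposite directions. Pde5a (ENSRNOG00000014443), the target of sildenafil in vascular smooth muscle, was at 7.80 and 9.13 normalized CPM in neonates and 18.2 and 23.4 in adults. It was 2.45-fold lower in neonates (log2 fold change -1.30, SE 0.17, adjusted p = 0.00019 in edgeR's quasi-likelihood test). Pde9a (ENSRNOG00000001174), the enzyme with high affinity for cGMP, was the only member past 2-fold on the neonatal side, with 19.6 and 17.3 in neonates and 7.73 and 9.27 in adults. Its log2 fold change was 1.12 (SE 0.16, adjusted p = 0.00030 in edgeR's quasi-likelihood test), and it fell under 2-fold without adult replicate 1 (0.99) and with library size alone (0.87), with the adjusted p still under 0.05. Because the signs were opposite, the cGMP-specific share of phosphodiesterase counts overlapped between ages, at 8.44% and 8.26% in neonates and 6.78% and 8.62% in adults.

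The cAMP-specific families PDE4, PDE7 and PDE8 were mixed, with 4 of 8 tested genes lower in neonates, 2 higher and 2 not passing. The share called was 75%, against 62.3% of all genes. In the PDE4 family, the targets of rolipram, Pde4b (ENSRNOG00000005905) was at 9.35 and 10.9 normalized CPM in neonates and 14.6 and 18.2 in adults. Its log2 fold change was -0.69 (SE 0.17, adjusted p = 0.0057 in edgeR's quasi-likelihood test), and -0.53 without adult replicate 2, where it did not pass. Pde4c (ENSRNOG00000019518) was low throughout, with 0.676 and 0.529 in neonates and 1.45 and 2.42 in adults. It passed the filter only through the adult libraries, and its log2 fold change of -1.68 (SE 0.43, adjusted p = 0.0082 in edgeR's quasi-likelihood test) was -1.26 without adult replicate 2 (adjusted p = 0.11 in that edgeR fit). Its other entry had 0 counts in neonates and 4 and 5 in adults. Pde4d was at 4.11 and 2.81 in neonates and 5.52 and 6.65 in adults (log2 fold change -0.81, SE 0.28, adjusted p = 0.028 in edgeR's quasi-likelihood test), and it lost the call when any library but neonate replicate 1 was left out. Pde4a did not pass (log2 fold change -0.79, SE 0.39, adjusted p = 0.11 in edgeR's quasi-likelihood test), with 2.82 and 1.36 in neonates and 2.95 and 4.28 in adults.

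The genes of PDE7 parted within the family. Pde7a (ENSRNOG00000013048), known from T cells, was at 20.5 and 23.0 normalized CPM in neonates and 14.2 and 13.5 in adults, higher in neonates by 0.65 on the log2 scale (SE 0.12, adjusted p = 0.0017 in edgeR's quasi-likelihood test). Pde7b (ENSRNOG00000013436) was lower in neonates, with 3.55 and 3.62 against 5.25 and 8.14 in adults (log2 fold change -0.90, SE 0.28, adjusted p = 0.019 in edgeR's quasi-likelihood test). The adult libraries of Pde7b differed by more than its neonatal libraries, and the value was -0.55 and did not pass without adult replicate 2. In PDE8, the IBMX-insensitive family, Pde8b was at 3.80 and 3.34 in neonates and 1.94 and 1.92 in adults (log2 fold change 0.89, SE 0.29, adjusted p = 0.026 in edgeR's quasi-likelihood test). Pde8b did not pass with library size alone or without neonate replicate 1, adult replicate 1 or adult replicate 2. Pde8a, at 33.1 and 28.8 in neonates and 28.8 and 29.2 in adults, overlapped between ages (log2 fold change 0.095, SE 0.10, adjusted p = 0.44 in edgeR's quasi-likelihood test). With library size alone its sign turned (-0.15).

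Pde10a, best known from the striatum, stayed between 5.51 and 5.87 normalized CPM in all 4 libraries (log2 fold change -0.038, SE 0.22, adjusted p = 0.89 in edgeR's quasi-likelihood test). Pde6d encodes a delta subunit that carries prenylated proteins and has no catalytic activity. It was at 55.9 and 53.5 in neonates and 43.0 and 38.6 in adults, higher in neonates by 0.42 on the log2 scale (SE 0.096, adjusted p = 0.0044 in edgeR's quasi-likelihood test), and did not pass with library size alone (adjusted p = 0.13 in that edgeR fit). The photoreceptor genes Pde6a, Pde6c, Pde6g and Pde6h had at most 13 counts in any library, and Pde6b had 0 in all 4, which allows up to 0.0827 CPM. Photoreceptor markers were as low, with 0 of 6 passing the filter and a summed level between 1.44 and 1.94 normalized CPM. Pde11a had 1 count in adult replicate 2 and 0 elsewhere.

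**Figure D3:**
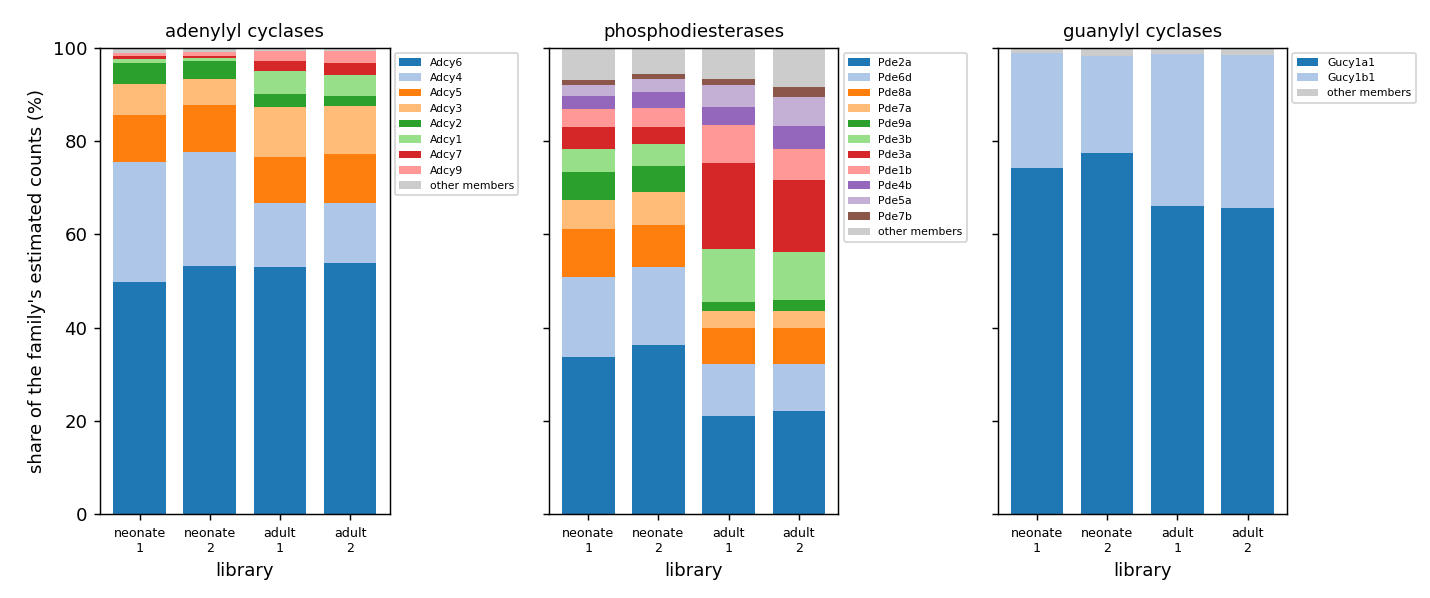
Share of each family's estimated counts (%) taken by each member in every library, with members under 2% in all libraries joined as other. Adcy6 keeps between 49.7% and 53.9% of the adenylyl cyclase counts, while Pde3a goes from 4.68% and 3.70% in neonates to 18.4% and 15.6% in adults. Shares depend on transcript length and are to be compared between libraries only.

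Among the Gucy genes, which leave out the natriuretic peptide receptor cyclases Npr1 and Npr2, the subunits of the soluble enzyme, the receptor for nitric oxide, took between 99.1% and 99.7% of counts. The subunits of its common dimer moved in opposite directions, both by less than 2-fold. Gucy1a1 (ENSRNOG00000012302), the alpha subunit, was at 162 and 177 normalized CPM in neonates and 130 and 151 in adults, and Gucy1b1 (ENSRNOG00000012060), the beta subunit, at 53.6 and 47.4 in neonates and 63.4 and 75.1 in adults. Neither gene overlapped between ages. The log2 fold change of Gucy1a1 was 0.27 (SE 0.094, adjusted p = 0.031 in edgeR's quasi-likelihood test), but it was 0.026 with library size alone and did not pass in 5 of 12 alternatives. For Gucy1b1 it was -0.46 (SE 0.11, adjusted p = 0.0062 in edgeR's quasi-likelihood test), and 1 of 12 alternatives, without adult replicate 2, did not pass (adjusted p = 0.065 in that edgeR fit). The ratio of Gucy1a1 to Gucy1b1 counts within a library, which scaling cannot move, was 3.02 and 3.74 in neonates and 2.04 and 2.01 in adults. The ratios did not overlap, at the smallest two-sided exact permutation p that 2 against 2 allows (p = 0.333). In the rat assembly GRCr8 these genes are neighbours, with 0 protein-coding genes between them. Gucy1a2, the alternative alpha subunit, did not pass (log2 fold change -0.24, SE 0.35, adjusted p = 0.57 in edgeR's quasi-likelihood test), with levels between 1.35 and 1.92.

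The receptor cyclases of the Gucy2 series were low, with Gucy2d the only one that passed the filter. Gucy2d had 0.451 and 1.14 normalized CPM in neonates and 0.540 and 1.13 in adults (log2 fold change -0.069, SE 0.57, adjusted p = 0.92 in edgeR's quasi-likelihood test), with the replicates of an age further apart than the ages. Gucy2c, the receptor of guanylin, had 5 and 25 counts in neonates and 3 and 4 in adults. The remaining Gucy1b2, Gucy2e and Gucy2g had at most 13 counts in any library, and Gucy2f had 0 in all 4. The receptor cyclases named Npr, which belong to the wider pathway list, had more counts. Npr2 was at 156 and 160 normalized CPM in neonates and 104 and 113 in adults (log2 fold change 0.54, SE 0.077, adjusted p = 0.00033 in edgeR's quasi-likelihood test). Npr1 was at 76.0 and 71.1 in neonates and 88.3 and 85.4 in adults (log2 fold change -0.24, SE 0.082, adjusted p = 0.029 in edgeR's quasi-likelihood test). The call of Npr1 was lost without neonate replicate 2, adult replicate 1 or adult replicate 2, with adjusted p up to 0.14 in those edgeR fits.

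Sequence before the annotated gene start was looked up for the 31 genes tested, in RefSeq windows of the assembly GRCr8, a later build than the Rnor_6.0 to which the reads were mapped. Windows were found for 21 of them, 31 windows in all since some genes have several starts, and for 6 of the 10 genes called with at least a 2-fold difference (Adcy1, Adcy7, Adcy9, Pde1c, Pde3a and Pde5a). No window was given for Pde1b, Pde3b, Pde4c and Pde9a. The 250 bases before the start were searched on both strands for the short form of the cAMP response element (TGACG or CGTCA), its full form (TGACGTCA, which contains the short form) and the GC box (GGGCGG or CCGCCC). The short form was in 7 of the 31 member windows (22.6%) and in 18.2% of all 33469 windows, and the full form in 0 of 31 and in 1.59% of all. A GC box was in 16 of 31 (51.6%) and in 30.5% of all windows. Windows are not genes, as Pde4a and Pde4d each had several. GC content was not matched between member windows and all windows. Its median was 51.2% over all windows, and it ran from 46.8% (Pde1c) to 88% (Adcy1) in the 6 called genes with a window. Of the 6 called genes with a window, 1 (Adcy9, with its start 60 bases before the gene start) held the short element and 2 (Adcy1 and Pde5a) held a GC box. The window of Adcy1 appears to run into coding sequence and is not shown. Without it, a count added after seeing the data, 15 of 30 member windows and 1 of the 5 called genes held a GC box. Shown here are windows of Adcy9, Pde3a and Pde5a, which were lower in neonates, and of Adcy4, with the smallest adjusted p among the members higher in neonates. They are written from 5′ to 3′ on the gene's strand with matches to the short element and the GC box in capitals, and the windows of Pde3a and Adcy4 hold neither.
Adcy9, GRCr8 chr10:11645595-11645844, plus strand: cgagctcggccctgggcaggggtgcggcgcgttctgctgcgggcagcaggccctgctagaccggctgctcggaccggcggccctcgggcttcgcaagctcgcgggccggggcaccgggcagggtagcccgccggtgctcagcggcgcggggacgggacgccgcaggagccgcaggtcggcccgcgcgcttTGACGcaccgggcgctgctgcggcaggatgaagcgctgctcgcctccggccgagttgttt
Pde3a, GRCr8 chr4:175904026-175904275, plus strand: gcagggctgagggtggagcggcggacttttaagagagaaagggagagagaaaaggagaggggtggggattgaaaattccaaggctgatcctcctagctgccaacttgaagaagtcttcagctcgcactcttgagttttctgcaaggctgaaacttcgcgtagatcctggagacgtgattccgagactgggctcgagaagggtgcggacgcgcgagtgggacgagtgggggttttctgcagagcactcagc
Pde5a, GRCr8 chr2:213543776-213544025, plus strand: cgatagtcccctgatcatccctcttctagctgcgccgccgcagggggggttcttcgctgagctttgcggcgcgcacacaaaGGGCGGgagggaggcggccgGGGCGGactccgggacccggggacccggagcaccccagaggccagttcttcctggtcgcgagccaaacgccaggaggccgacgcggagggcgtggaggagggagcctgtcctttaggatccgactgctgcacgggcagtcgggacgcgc
Adcy4, GRCr8 chr15:33252027-33252276, minus strand: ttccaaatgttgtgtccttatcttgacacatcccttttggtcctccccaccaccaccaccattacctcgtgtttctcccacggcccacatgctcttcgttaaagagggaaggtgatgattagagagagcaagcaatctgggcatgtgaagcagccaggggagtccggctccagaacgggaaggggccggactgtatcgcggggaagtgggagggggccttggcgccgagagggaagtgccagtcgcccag
These matches describe letters in a window and not sites that a factor was shown to bind.

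Of 45 further genes of the cyclic nucleotide pathway in a list made by symbol, 36 were tested. At an adjusted p under 0.05 in edgeR's quasi-likelihood test 16 were lower in neonates and 11 higher, and 9 did not pass. With library size alone these counts were 19 lower and 5 higher. In the main fit 75% of the 36 were called, against 62.3% of all genes, of which 31.1% were lower and 31.2% higher. A fold change of at least 2 was reached by 7, all lower in neonates (19.4% of the 36, against 13.2% of all genes), and the largest value toward neonates was 0.99 for Popdc2, which lost its call with library size alone and without either adult replicate. The list's median log2 fold change was -0.12, against -0.0029 over all genes.

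Subunits of protein kinase A, the main effector of cAMP, were unequal between ages. The catalytic subunit gene Prkacb was at 7.38 and 5.54 normalized CPM in neonates and 31.8 and 35.0 in adults, the largest difference on the list (log2 fold change -2.37, SE 0.15, adjusted p = 6.1e-06 in edgeR's quasi-likelihood test). Its counts were fractional in all 4 libraries, so reads were shared with other sequence and its level is uncertain. Prkaca, the other catalytic subunit gene, was at 139 and 147 in neonates and 142 and 119 in adults and did not pass (log2 fold change 0.13, SE 0.095, adjusted p = 0.26 in edgeR's quasi-likelihood test). The regulatory subunit gene Prkar2a had 9.18 and 9.32 in neonates and 28.3 and 26.8 in adults (log2 fold change -1.57, SE 0.12, adjusted p = 1.2e-05 in edgeR's quasi-likelihood test). Prkar2b went the other way (log2 fold change 0.67), while Prkar1a (-0.71) and Prkar1b (-0.999) were lower in neonates. Their adjusted p lay between 5.8e-05 and 0.00049 in edgeR's quasi-likelihood test. Prkar1b was just short of 2-fold. It passed that line with library size alone (-1.24) and without adult replicate 2 (-1.07), and stayed under it without adult replicate 1 (-0.92).

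Upstream, Gnai1, an inhibitory G protein alpha subunit, was at 12.6 and 12.5 normalized CPM in neonates and 27.9 and 29.3 in adults (log2 fold change -1.19, SE 0.11, adjusted p = 3.2e-05 in edgeR's quasi-likelihood test). Gnai3 was lower in neonates by less (-0.34), and Gnai2 (-0.14), Gnao1 (0.039) and Gnaz (0.048) did not pass. Gnas, the stimulatory alpha subunit, was higher in neonates by 0.63 on the log2 scale (SE 0.14, adjusted p = 0.0043 in edgeR's quasi-likelihood test), though fractional counts were split over 2 entries, of which the larger is given. Of the cGMP kinase genes, Prkg2 was higher in neonates (log2 fold change 0.56, SE 0.21, adjusted p = 0.038 in edgeR's quasi-likelihood test), and Prkg1 is not listed under that symbol. Prkg2 passed in 7 of 12 alternatives, with an adjusted p of 0.20 with library size alone and 0.26 without adult replicate 2 in those edgeR fits.

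The other genes past 2-fold were all lower in neonates. Abcc4, which exports cyclic nucleotides, was at 5.07 and 5.01 normalized CPM in neonates and 17.0 and 14.1 in adults (log2 fold change -1.62, SE 0.18). The kinase anchors Akap6 (log2 fold change -1.53, SE 0.11) and Akap7 (-1.27, SE 0.29) and the transcription factor Creb1 (-1.50, SE 0.33) made up the rest. Their adjusted p ran from 8.1e-06 for Akap6 to 0.0046 for Akap7 in edgeR's quasi-likelihood test. Without adult replicate 2, Akap7 did not pass (log2 fold change -1.0, adjusted p = 0.068 in that edgeR fit). Creb1 was low, with 2.53 and 1.42 in neonates and 5.13 and 6.10 in adults, and had fractional counts in 2 libraries.

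**Figure D4:**
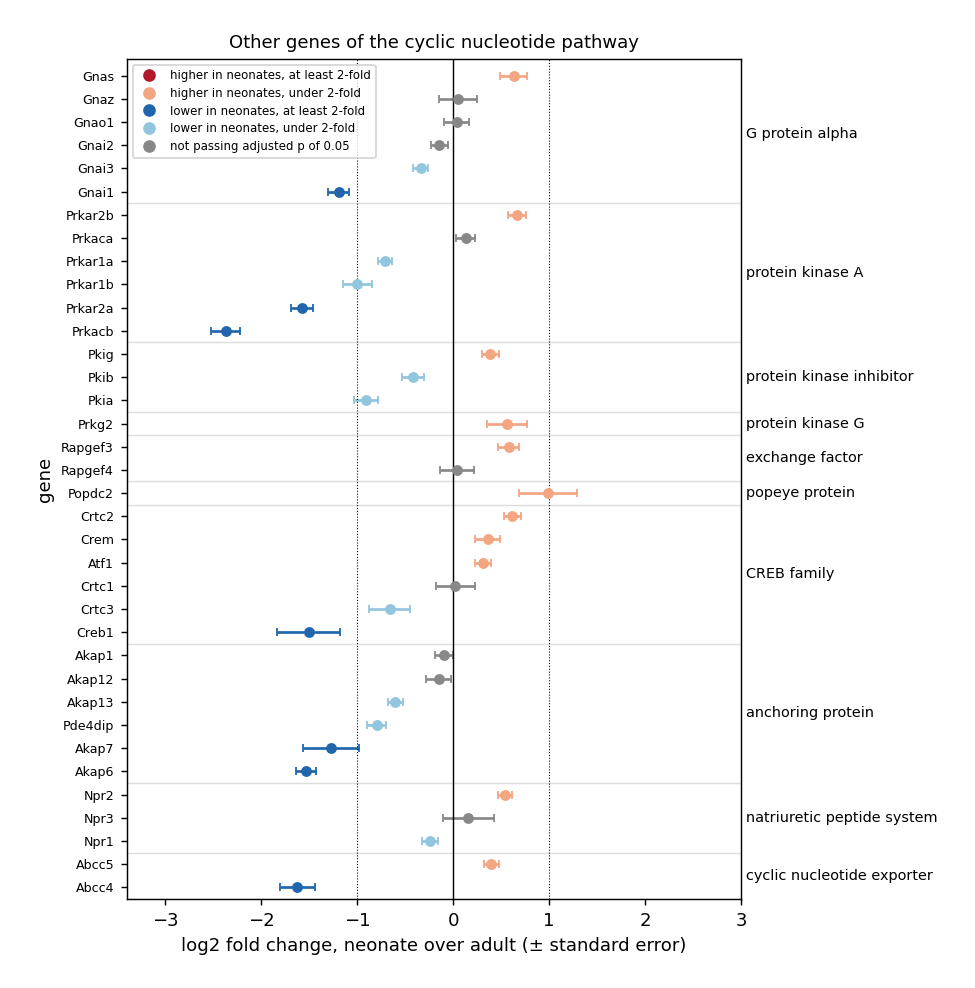
Log2 fold change (neonate over adult) with its standard error for the 36 tested genes of the wider cyclic nucleotide pathway, grouped by role, with colour for the call at an adjusted p under 0.05 and dotted lines at 2-fold. Prkacb lies furthest to the adult side at -2.37, and no point lies past the 2-fold line on the neonatal side.

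Marker lists of other cell types moved with age beside these genes. Proliferation markers were higher in neonates for 5 of 5, with summed levels of 542 and 463 normalized CPM in neonates and 121 and 122 in adults, and mast cell markers for 4 of 5 (76.3 and 80.0 against 26.0 and 23.1). Sympathetic neuron markers were higher for 4 of 6 (1938 and 1770 against 1520 and 1319), and fibroblast markers lower for 4 of 6 (13058 and 15609 against 16840.3 and 18658). Glomus cell markers were higher for 4 of 8, among them Chga with its highest level in neonate replicate 1, and lower for 2. Endothelial markers, with 1 higher and 2 lower of 6 tested, had overlapping sums (1006 and 1055 against 1020 and 1045), as did sustentacular and Schwann cell markers, with 1 higher and 3 lower of 7 (1140 and 2242 against 1926 and 2056). Skeletal muscle markers (0 of 4 tested called by edgeR) also overlapped in their sums. Which cells carried the differences in cyclases and phosphodiesterases was not tested.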

How the data were processed

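Per the labels and the paper's methods, the authors mapped trimmed reads to Rnor_6.0 with STAR, quantified them with Salmon 1.5.2 and deposited estimated counts per gene, neither normalized nor filtered. These expected counts were rounded. The members' deposited counts were whole numbers for all 44 entries. Genes annotated as other than protein-coding by symbol in a RefSeq table of GRCr8 (636 of 32883) were removed, and those reaching 1 CPM in 2 or more libraries were tested in R 4.3.3 with edgeR 4.0.16 (TMM, quasi-likelihood, no covariates). The SE was taken from the log2 fold change and its F statistic. Normalized CPM use the TMM-scaled total of the genes tested. For list symbols with several entries, the larger was used.

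Alternatives were DESeq2 1.42.0, limma-voom 3.58.1, other scalings and filters, a replicate block and each library left out. The procedure was tested on simulated data. The replicates are labelled biological, and counts of a pair differed by 32.6 (neonates) and 15.4 (adults) in chi-square per degree of freedom, above sampling noise. Members, lists and roles were chosen with earlier results of these data known. The text gives every member, in full where called at 2-fold, and the pathway genes called at 2-fold with the G protein and kinase genes.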

Additional observations from a re-analysis of the deposited data

How the results depend on the processing

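Across 12 alternatives, 329 of 361 log2 fold changes of single genes kept their sign and their side of the adjusted p of 0.05. With library size alone, 0 member genes were higher at 2-fold and 14 lower, 4 were higher at any fold, 704 and 2549 of all genes were higher and lower at 2-fold (21.6% of those called higher, against 36.8%), 2587 were higher at any fold, and 5 pathway genes were higher. A mean of at least 5 CPM left 20 member genes, with 5 lower at 2-fold and 9 at any fold, and 654 and 1169 of all genes higher and lower at 2-fold. Without a filter, 1 pathway gene was higher at 2-fold. Leaving out each library in turn gave 0 to 2 member genes higher at 2-fold, 7 to 11 lower, and 8 to 15 lower at any fold, the lowest without adult replicate 2, and 0 to 1 pathway genes higher at 2-fold. Genes near 0 changed sign when a library was left out, over ranges of -0.16 to 0.13 for Adcy5, -0.16 to 0.074 for Adcy6, -0.88 to 0.56 for Gucy2d, -0.0068 to 0.20 for Pde8a and -0.073 to 0.0071 for Pde10a, and Pde8a was at -0.15 with library size alone. With a library left out, the lone library of that age is assumed to vary like the others. Replicate numbers did not pair the libraries (correlation of their deviations -0.015), and the fit with a replicate block called 1 member gene higher and 9 lower at 2-fold, as without it. Where calls were lost, the cause was not tested, apart from the smaller number of genes with a mean of 5 CPM. Depth limits members under the filter, whose highest count was 26.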

Other observations

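Ratios of counts within a library, for pairs chosen after their values were seen, do not depend on scaling between libraries. The ratio of Pde3a to Pde2a was 0.139 and 0.102 in neonates and 0.875 and 0.703 in adults, and that of Pde5a to Pde9a was 0.399 and 0.527 against 2.35 and 2.52. Adcy1 to Adcy6 stood at 0.0142 and 0.00935 against 0.0926 and 0.0826, while Adcy4 to Adcy6 stood at 0.518 and 0.460 against 0.256 and 0.238. Pde3a to Pde3b was 0.957 and 0.780 against 1.63 and 1.54. For Pde7b to Pde7a the values were 0.173 and 0.157 against 0.369 and 0.602. Ages did not overlap in any of these 6 ratios, each at the smallest two-sided exact permutation p that 2 libraries against 2 allow (p = 0.333), and no adjustment can bring that p under 0.05.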
